A study of Americamysis bahia with 35 samples.

Results

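A rule on the transcripts of juvenile mysids kept in leachates of tire-wear particles picked 22 Trinity genes. Their group medians lay above the highest control library at every concentration tested, the lowest included. A Trinity gene is the set of assembled transcripts that share 1 gene identifier of the assembler Trinity. The 22 were chosen from 22900 Trinity genes by the following rule, which used measured values. The estimated counts of a gene's transcripts were added and expressed as CPM, the count scaled to the library total. A gene had to have a mean of at least 5 CPM over all 35 libraries, which 9252 genes had. Every library of weathered 2.68 g/L and of unweathered 1.08 g/L, the highest concentration of each leachate, had to exceed the highest control library. The medians of weathered 0.67 and 1.34 g/L and of unweathered 0.27 and 0.54 g/L had to exceed that library too.

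Because every exposed group was used in this choice, all expression levels set against the control are descriptions and were not tested here. The split of counts over isoforms, which the choice did not use, was tested against the control. The deposited files do not pair Trinity identifiers with gene names or sequences, so what the 22 genes encode is not given here, and no pathway list could be counted. They are called member 1 to member 22, from the highest to the lowest mean CPM. Member 1 is TRINITY_DN549_c0_g1, the most abundant, and member 22 is TRINITY_DN24816_c0_g2, with the largest mean log2 change at the lowest concentration of each leachate.

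Americamysis bahia is a small shrimp-like crustacean of estuaries that is widely used in toxicity tests. Tire-wear particles are rubber fragments shed by tires on roads, and water that stands on them takes up zinc and organic additives of the rubber. Animals commonly answer such mixtures with graded changes in messenger RNA, in which some transcripts change at concentrations well below those that move many others.

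The weathered groups were exposed at 0.67, 1.34 and 2.68 g/L, the unweathered groups at 0.27, 0.54 and 1.08 g/L, and the control stood in seawater of 25 ppt with 0 g/L. Each of the 7 groups had 5 whole-body libraries of juveniles, with an age of 5 days on the labels, after 96 h of waterborne exposure, and the leachates were themselves made with seawater of 25 ppt. The labels call the concentrations measured ones and do not tell whether libraries of 1 group are different animals, pools or tanks, so a p-value here reflects the spread among the libraries, part of which may be technical. Library totals ran from 18081325 to 28390588 counts. Replicate 1 of weathered 0.67 g/L stood apart by its TMM factor of 0.768, the smallest scaling factor of the 35. Replicate 3 of weathered 1.34 g/L had the smallest median correlation with other libraries, 0.925 over the log2 CPM of genes. The gap was small, since replicate 1 of unweathered 0.54 g/L had 0.932.

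Scaled by library totals, the median of the members was above the control and under 2-fold of it in every exposed group. The median log2 change over the 22, computed from group means of CPM, was 0.32 at weathered 0.67 g/L, 0.34 at 1.34 g/L, then 0.66 at 2.68 g/L. For unweathered leachate it was 0.39 at 0.27 g/L, 0.48 at 0.54 g/L, then 0.97 at 1.08 g/L. Without replicate 1 of weathered 0.67 g/L and replicate 3 of weathered 1.34 g/L, the weathered medians were 0.30 at 0.67 g/L and 0.36 at 1.34 g/L. The medians over all libraries equal 1.25, 1.27 and 1.58 times the control for weathered leachate and 1.31, 1.39 and 1.96 times for unweathered leachate. Over all 9252 genes the median log2 change was -0.16, -0.12 and -0.04 for weathered and -0.12, -0.13 and -0.02 for unweathered leachate. In whole-body RNA, more cells that make a transcript and more of it per cell cannot be told apart.

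The shift of all genes below 0 was seen with scaling by library totals. With TMM factors, which scale libraries by the bulk of their genes, all-gene medians lay between 0.01 and 0.05 in the 6 exposed groups. The members' medians were then 0.54, 0.49 and 0.72 at weathered 0.67, 1.34 and 2.68 g/L, and 0.50, 0.60 and 1.02 at unweathered 0.27, 0.54 and 1.08 g/L. All 22 were above the control mean at the lowest concentration of each leachate under TMM. The smallest log2 change was 0.29 for weathered and 0.22 for unweathered leachate. This was largely fixed in advance, since the rule asked for high medians there and TMM raised the all-gene medians.

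**Figure D1:**
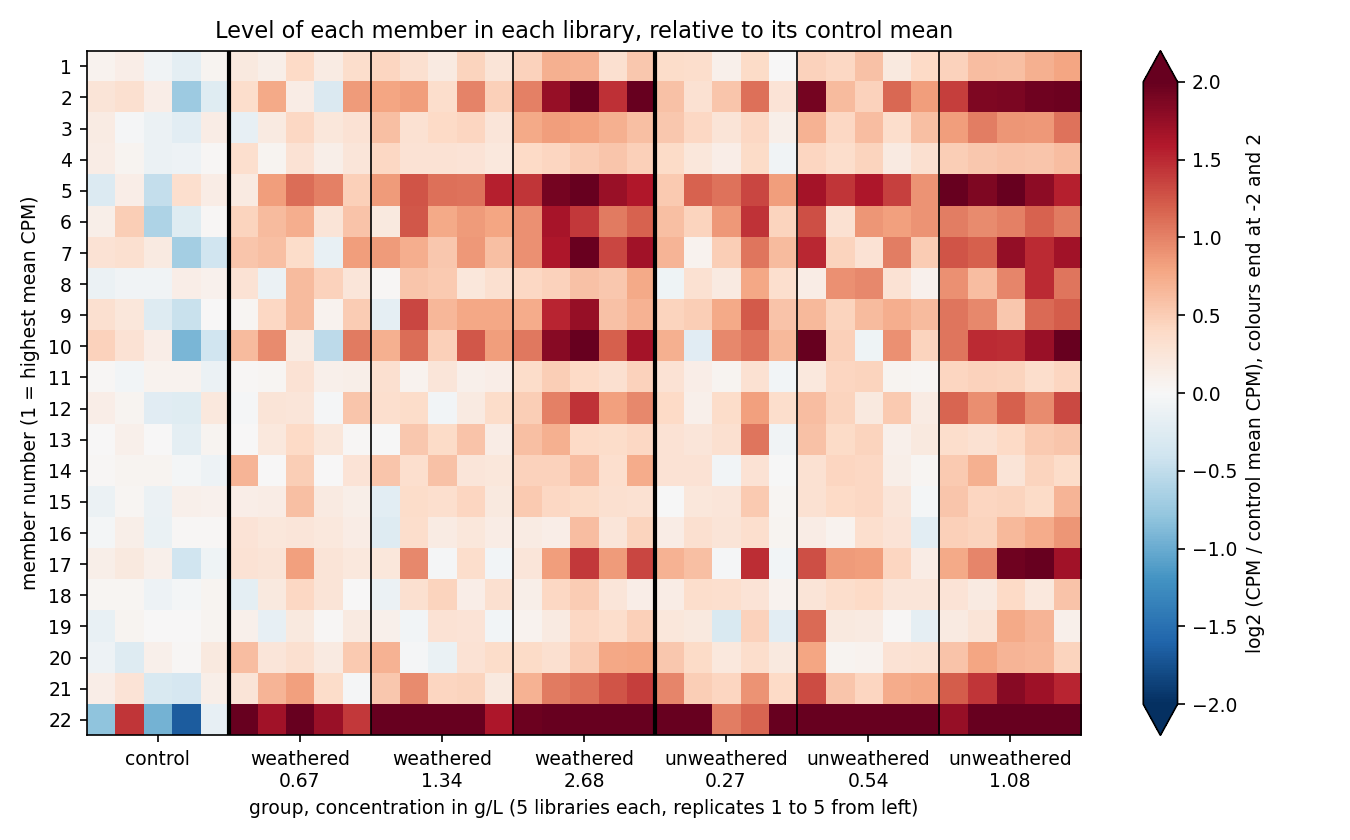
Log2 of each member's CPM over its control mean in each of the 35 libraries, with members down the page by mean CPM and 5 libraries in each group. Colours end at -2 and 2; members 2, 5, 10, 17 and 22 pass 2 in some libraries, while member 11 stays below 0.5 in all 35.

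The members differed in the size of their change, and the number at 2-fold or more was highest at the highest concentrations. The rule asks more of the highest concentrations, so this order is partly fixed by the choice. At weathered 2.68 g/L 8 members had means of 2-fold or more of the control, and at unweathered 1.08 g/L 11 had. At weathered 1.34 and 0.67 g/L these numbers were 2 and 1, and at unweathered 0.54 and 0.27 g/L they were 3 and 2. The smallest log2 changes at the highest concentrations were 0.29 at weathered 2.68 g/L and 0.33 at unweathered 1.08 g/L, both in member 18. At the lowest concentrations member 19 was nearest to the control, at 0.07 for weathered 0.67 g/L and 0.10 for unweathered 0.27 g/L.

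The highest control library was often passed by only part of a lower group. Of the 110 member-library pairs in a group, 79 exceeded the highest control library at weathered 0.67 g/L, as did 94 at 1.34 g/L. At unweathered 0.27 and 0.54 g/L 82 and 91 did. All 5 libraries exceeded it for 3 members at weathered 0.67 g/L, 10 at weathered 1.34 g/L, 4 at unweathered 0.27 g/L and 9 at unweathered 0.54 g/L. At the highest concentrations the rule fixed this at 22 members.

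Averaged over the 22 members, the log2 ratio of CPM to the control mean separated every exposed library from every control library, which follows in part from the choice of the members. The control libraries lay between -0.26 and 0.18. For weathered leachate the range was 0.22 to 0.69 at 0.67 g/L, 0.44 to 0.72 at 1.34 g/L, then 0.64 to 1.13 at 2.68 g/L. For unweathered leachate it was 0.34 to 0.78 at 0.27 g/L, 0.47 to 0.91 at 0.54 g/L, then 0.86 to 1.21 at 1.08 g/L. With library totals as the scale, neighbouring concentrations of the same leachate overlapped in each case. The lowest library of unweathered 1.08 g/L, at 0.86, lay above all libraries of 0.27 g/L. The lowest library of weathered 2.68 g/L, at 0.64, lay below the highest of 0.67 g/L, at 0.69. With TMM, unweathered 0.27 g/L ran from 0.47 to 0.70 and unweathered 0.54 g/L from 0.72 to 0.91, without overlap. The other neighbouring pairs still overlapped with TMM. Together the members made up 0.404% ± 0.0573 of the counts at weathered 2.68 g/L and 0.424% ± 0.0289 at unweathered 1.08 g/L, against 0.212% ± 0.0208 in the control (SD, n = 5 each).

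**Figure D2:**
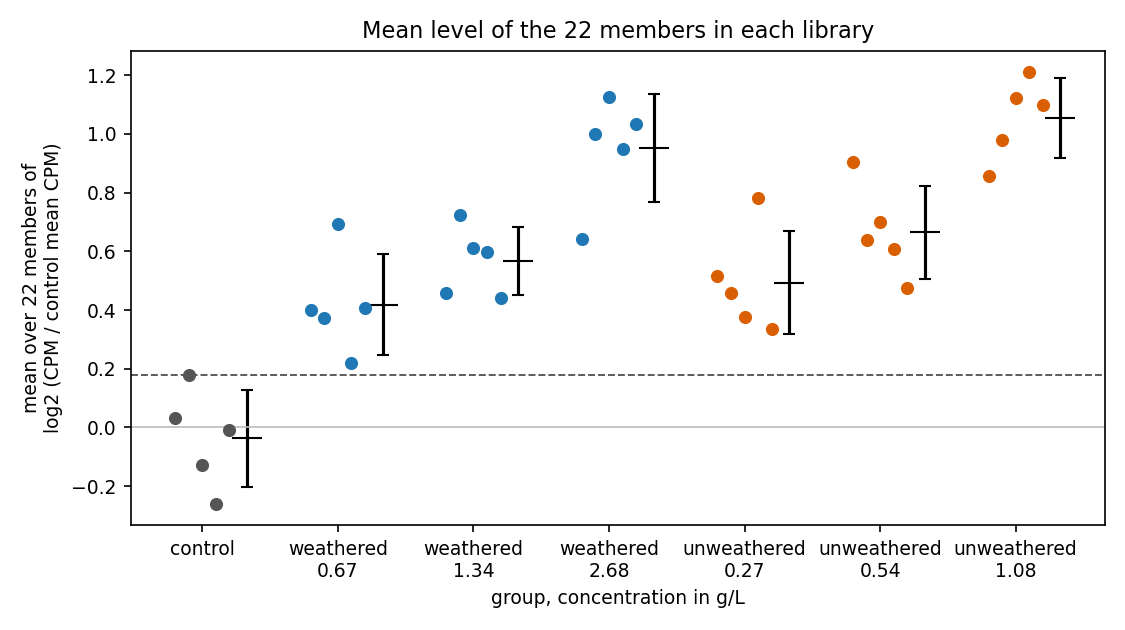
Mean over the 22 members of log2 (CPM over control mean CPM), 1 point per library, with the mean and SD (n = 5) beside each group and the highest control library as a dashed line. Exposed libraries run from 0.22 to 1.21 and control libraries from -0.26 to 0.18.

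Member 1, the most abundant, had 762, 793, 688, 636 and 751 CPM in the 5 control libraries. Its values were 830, 790.3, 952, 811 and 925 CPM at weathered 0.67 g/L, 979, 904, 824, 985 and 870.0 CPM at 1.34 g/L, and 997, 1185, 1178, 907 and 1054 CPM at 2.68 g/L. At unweathered 0.27 g/L they were 941, 929.8, 777, 946 and 731 CPM, at 0.54 g/L 995, 966, 1089, 831 and 962 CPM, and at 1.08 g/L 996, 1111, 1106, 1184 and 1254 CPM. The group means were in the order of concentration for each leachate, and 1 library at weathered 0.67 g/L and 2 at unweathered 0.27 g/L lay within the control range. The log2 change of the mean was 0.55 at weathered 2.68 g/L and 0.64 at unweathered 1.08 g/L. Per length, its mean level over all libraries was 905 TPM (a share of the library scaled by transcript length), which ranked it 187 among the Trinity genes.

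Member 5 stood farthest above the rule's threshold at the lower concentrations. It had 88.0, 139, 168, 157 and 109 CPM at weathered 0.67 g/L and 112, 177, 165, 197 and 139 CPM at unweathered 0.27 g/L, against 64.0, 85.1, 55.7, 98.3 and 85.8 CPM in the control libraries. Means for the weathered groups, low to high, were 132 ± 33.3, 178 ± 33.2 and 263 ± 45.6 CPM, and for the unweathered groups 158 ± 33.3, 208 ± 40.4 and 292 ± 47.4 CPM, against 77.8 ± 17.4 CPM in the control (SD, n = 5 each). Of its 30 exposed libraries only replicate 1 of weathered 0.67 g/L, at 88.0 CPM, lay within the control range. The mean was thus 1.70 times the control at weathered 0.67 g/L and 2.03 times at unweathered 0.27 g/L.

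After member 22, members 5 and 2 had the largest changes at the highest concentrations, and the libraries of member 2 varied more. Its values were 418, 697, 999.6, 570.2 and 906 CPM at weathered 2.68 g/L and 539, 759.5, 764, 796 and 804 CPM at unweathered 1.08 g/L. The control libraries had 249.5, 259, 228, 126 and 176 CPM, so the means were 3.46 and 3.53 times the control mean. At weathered 0.67 g/L the values of 264, 352, 230.1, 171 and 375 CPM overlapped the control in 2 libraries. At unweathered 0.54 g/L replicate 1 had 785 CPM and the other libraries 286 to 462 CPM.

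Members 2, 7 and 10 shared most of their high and low libraries. For each pair of members the library with the highest value and the library with the lowest value were compared in each of the 7 groups, 14 ends in all. Members 2 and 10 had the same library at 12 ends, members 2 and 7 at 11, and members 7 and 10 at 11. Member 12 came near them, with 10 ends shared with member 7, 10 with member 10 and 9 with member 2. Members 1 and 13 shared 10, as did members 17 and 21. Genes outside the members were not compared in this way. Over all 231 pairs of members the median was 4 ends, and 7 pairs reached 10 or more. At unweathered 0.54 g/L the values in replicates 1 to 5 were 276, 131, 118, 196 and 137 CPM for member 7 and 126, 41.1, 27.6, 55.2 and 39.9 CPM for member 10. Replicate 1 was the highest and replicate 3 the lowest there for these members, as for member 2. The 3 belong to different Trinity clusters, as do all 22 members.

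Member 22 was the least abundant and changed most. Its control mean of 0.556 CPM lay below the rule's floor of 5 CPM, as did that of member 21, at 3.99 CPM. Both passed the floor only through the exposed groups. From so low a control level only a large rise could meet the floor, so the size of member 22's change is partly fixed by the choice. Member 22 had 0.319, 1.502, 0.290, 0.175 and 0.494 CPM in the control libraries, from 3 to 35 estimated counts each. At weathered 0.67 g/L it had 7.21, 1.78, 25.6, 1.84 and 1.47 CPM, at 1.34 g/L 5.31, 7.52, 25.2, 3.75 and 1.71 CPM, and at 2.68 g/L 2.16, 5.37, 3.70, 25.6 and 8.96 CPM. At unweathered 0.27 g/L the values were 3.45, 4.79, 1.13, 1.25 and 4.21 CPM, at 0.54 g/L 2.39, 8.93, 15.4, 5.48 and 5.38 CPM, and at 1.08 g/L 1.85, 6.46, 8.25, 16.0 and 3.43 CPM. Except for 1 library at weathered 0.67 g/L and 2 at unweathered 0.27 g/L, all exposed libraries exceeded the highest control library, and in each weathered group 1 library stood near 25 CPM.

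The log2 changes of the mean of member 22 were 3.77, 3.97 and 4.04 at weathered 0.67, 1.34 and 2.68 g/L and 2.42, 3.76 and 3.69 at unweathered 0.27, 0.54 and 1.08 g/L. Single libraries carried much of the weathered means. Without replicate 3 the weathered 0.67 g/L mean was 3.08 CPM in place of 7.58 CPM, a log2 change of 2.47. Without replicate 3 the weathered 1.34 g/L mean was 4.57 CPM in place of 8.70 CPM, a log2 change of 3.04, and without replicate 4 the weathered 2.68 g/L mean was 5.05 CPM in place of 9.15 CPM, a log2 change of 3.18. The control mean was 0.556 CPM, and 0.319 CPM without its replicate 2. The group mean of no other member moved by over 1.5 times when 1 library was left out.

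**Figure D3:**
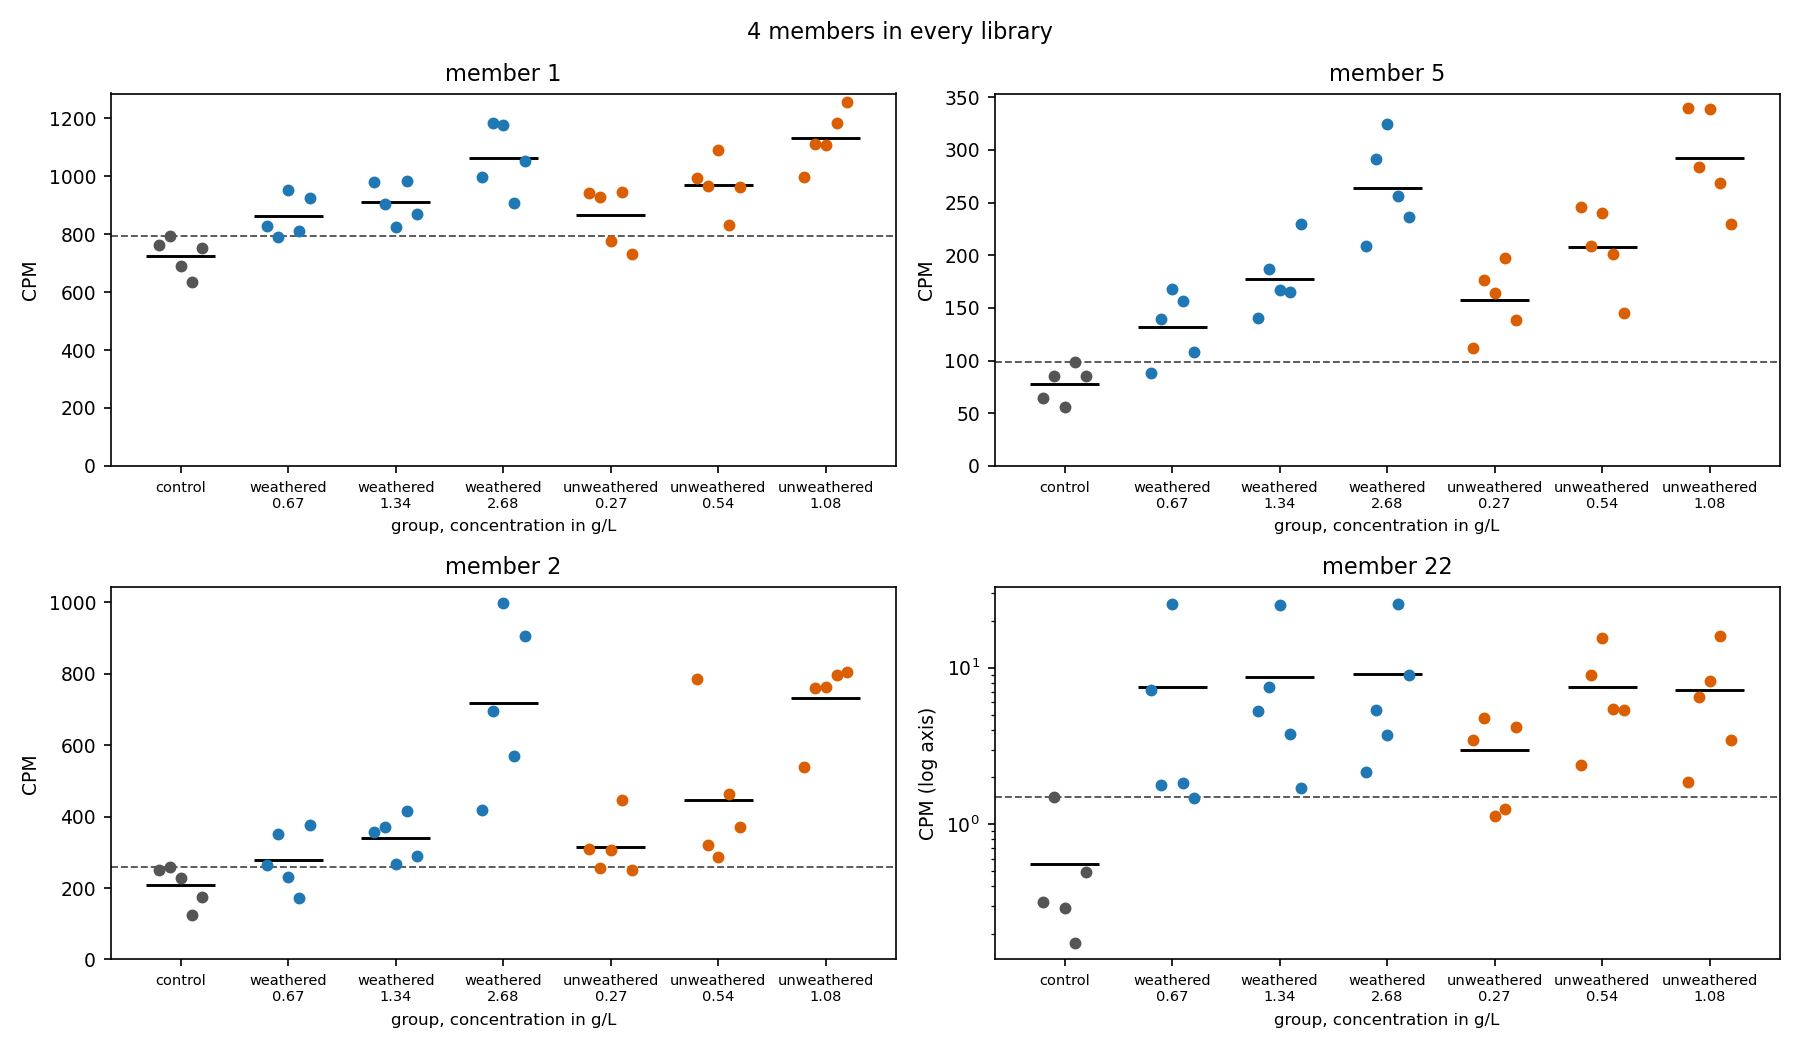
CPM of members 1, 5, 2 and 22 in each library, with group means as bars and the highest control library as a dashed line; member 22 is on a log axis. Members 1 and 5 have means in the order of concentration for both leachates, while member 22 has 1 library near 25 CPM in each weathered group.

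Group means mostly followed the concentration, an order that is partly fixed by the choice. The rule asks every library of the highest concentration, but only the medians of the lower ones, to exceed the highest control library. With library totals as the scale, the means of 18 members at weathered and 16 at unweathered concentrations were higher at every step, beginning with the control. With TMM these numbers were 12 and 15. The highest mean was at the highest concentration for 22 members in weathered and 21 in unweathered leachate, and for 19 and 19 with TMM. The step between the lower weathered concentrations was the one that depended most on the scale, since 18 members had a higher mean at 1.34 g/L than at 0.67 g/L by library totals and 13 did with TMM.

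A considerable part of the log2 change was present at the lowest concentrations. At weathered 0.67 g/L the log2 change reached a median of 41.5% of that at 2.68 g/L, and at unweathered 0.27 g/L a median of 40.9% of that at 1.08 g/L. At weathered 1.34 g/L the median was 57.2% and at unweathered 0.54 g/L 59.8%. With TMM the medians were 69.7% and 70.1% at weathered 0.67 and 1.34 g/L, and 56.4% and 74.1% at unweathered 0.27 and 0.54 g/L. Members ranged from 22.4% for member 12 to 93.3% for member 22 at weathered 0.67 g/L, and from 24.4% for member 19 to 98.3% for member 13 at unweathered 0.27 g/L, by library totals. The rule asks for high medians at these concentrations, so the shares are partly fixed by the choice.

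**Figure D4:**
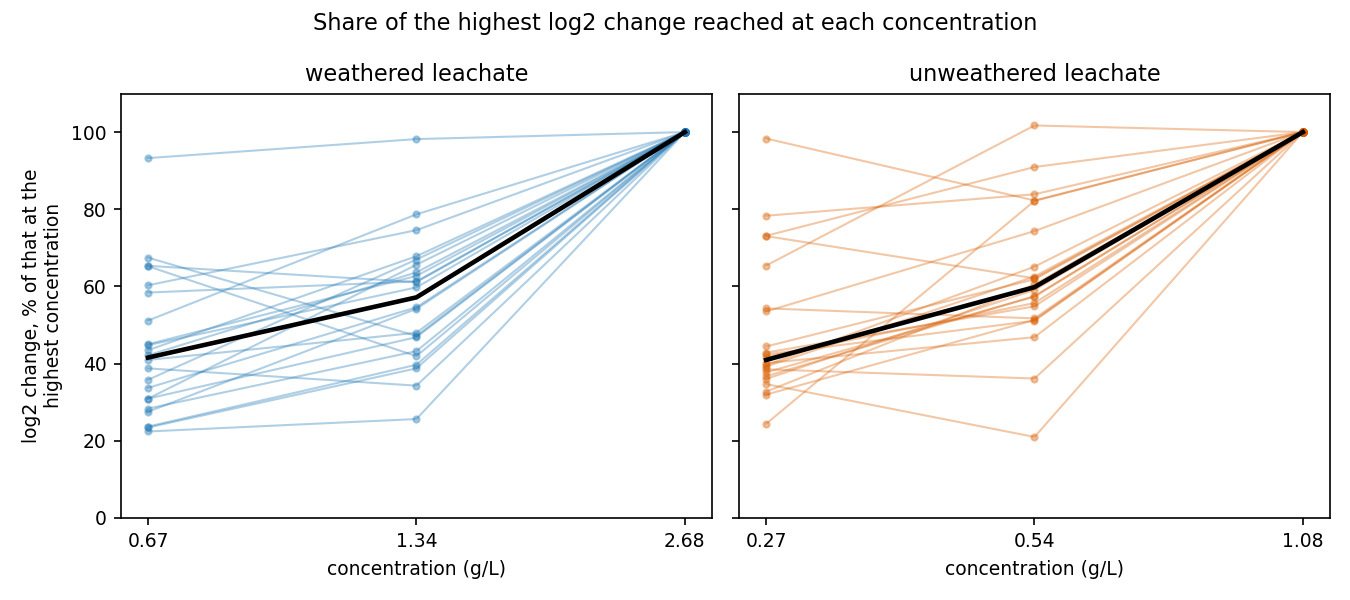
Log2 change of each member's mean CPM over the control, as a percentage of its log2 change at the highest concentration of the same leachate, with 1 line per member and the median in black. The medians at the lowest and middle concentrations are 41.5% and 57.2% for weathered and 40.9% and 59.8% for unweathered leachate.

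The rule's threshold did not fall in a gap. The lowest of a member's 4 lower-group medians was between 1.01 and 1.42 times its highest control library, with a median of 1.06, and 10 members were within 5% of the threshold. Member 5 had the largest margin and member 10 the smallest. Of the 105 genes that met the condition at the highest concentrations, 83 were not members, and the nearest of these had ratios of 0.997, 0.995 and 0.992. Among the 83, 23 had 3 of the 4 lower medians above the highest control library, 17 had 2, 20 had 1 and 23 had 0. Their median log2 changes were 0.12, 0.19 and 0.69 at weathered 0.67, 1.34 and 2.68 g/L, and 0.19, 0.36 and 0.77 at unweathered 0.27, 0.54 and 1.08 g/L. With the rule turned round, 16 genes lay below the lowest control library in the same way.

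Which genes met the rule depended on the scale and on the control libraries. With TMM 65 genes met it, and with upper quartile scaling 61, of which 15 were members in each case. Members 8, 11, 15, 16, 18, 19 and 20 met it under neither. Without control replicate 4, the library with the lowest total, 46 genes met the rule, and without replicates 1, 2 and 5 of the control 36, 42 and 44 did. All 22 members were among these, which was fixed in advance, since leaving out a control library cannot raise the highest control value.

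In the authors' deposited tables, which test single transcripts against the control, 21 members were present with 27 transcripts. A member was counted if a transcript of it was higher at an adjusted p under 0.05. By the authors' deposited tables, 5 members were so called at weathered 0.67 g/L, beside 0.173% of all 9852 Trinity genes in the tables, 4 members at 1.34 g/L, beside 0.102% of all genes, and 17 members at 2.68 g/L, beside 1.19% of all genes. By the authors' deposited tables for unweathered leachate 3 members were called at 0.27 g/L, beside 0.0406% of all genes, 8 members at 0.54 g/L, beside 0.233% of all genes, and 17 members at 1.08 g/L, beside 3.13% of all genes. The choice of members used the same libraries and contrasts, so these counts are not independent of it. The authors' deposited tables called a transcript lower for 0 members.

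The leachates were tested between the concentrations that the rule treats alike, with edgeR's quasi-likelihood test over 17990 genes and Benjamini-Hochberg adjusted p-values. The concentrations differ within each pair, so these are comparisons of groups and not of leachates at a matched concentration. The rule fixes no direction within a pair, but it kept only genes that were high in both groups. This holds for the pairs of lower concentrations of 1 leachate as well. A gene high in 1 group alone could not be a member, so 0 calls among members do not show that the groups are alike. At weathered 2.68 g/L against unweathered 1.08 g/L 0 members were called, beside 0% of all genes. Estimates were above 0 for 9 members and below 0 for 13, with a median log2 difference of -0.06 against 0.02 over all genes. Of the 22, 4 had an unadjusted p under 0.05 (18.2%, against 9.22% of all genes), and the smallest adjusted p was 0.427.

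These 4 were members 8, 16, 17 and 21, all with lower estimates in the weathered group. Member 8 averaged 97.1 ± 9.12 CPM at weathered 2.68 g/L and 136 ± 30.8 CPM at unweathered 1.08 g/L (SD, n = 5 each), a log2 difference of -0.47 (SE 0.18, edgeR adjusted p = 0.427). Member 17 averaged 22.4 ± 6.80 CPM at weathered 2.68 g/L and 34.7 ± 14.5 CPM at unweathered 1.08 g/L, a log2 difference of -0.60 (SE 0.27, edgeR adjusted p = 0.499). Neither passed the test. Member 1 differed by -0.07, with a 95% interval of -0.29 to 0.14, and member 22 by 0.35, with an interval of -1.20 to 1.90. For 15 members the interval lay within a 1.5-fold difference in either direction and for 20 within a 2-fold difference.

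At weathered 0.67 g/L against unweathered 0.54 g/L 0 members were called, beside 0.0222% of all genes. Estimates were above 0 for 5 members and below 0 for 17, with a median of -0.11 against 0.01 over all genes. An unadjusted p under 0.05 was found for 3 members (13.6%, against 10.5% of all genes), namely members 2, 3 and 5. Member 5 averaged 132 ± 33.3 CPM at weathered 0.67 g/L and 208 ± 40.4 CPM at unweathered 0.54 g/L (SD, n = 5 each), a log2 difference of -0.59 (SE 0.18, edgeR adjusted p = 0.211). For 13 members the 95% interval lay within 1.5-fold and for 20 within 2-fold.

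**Figure D5:**
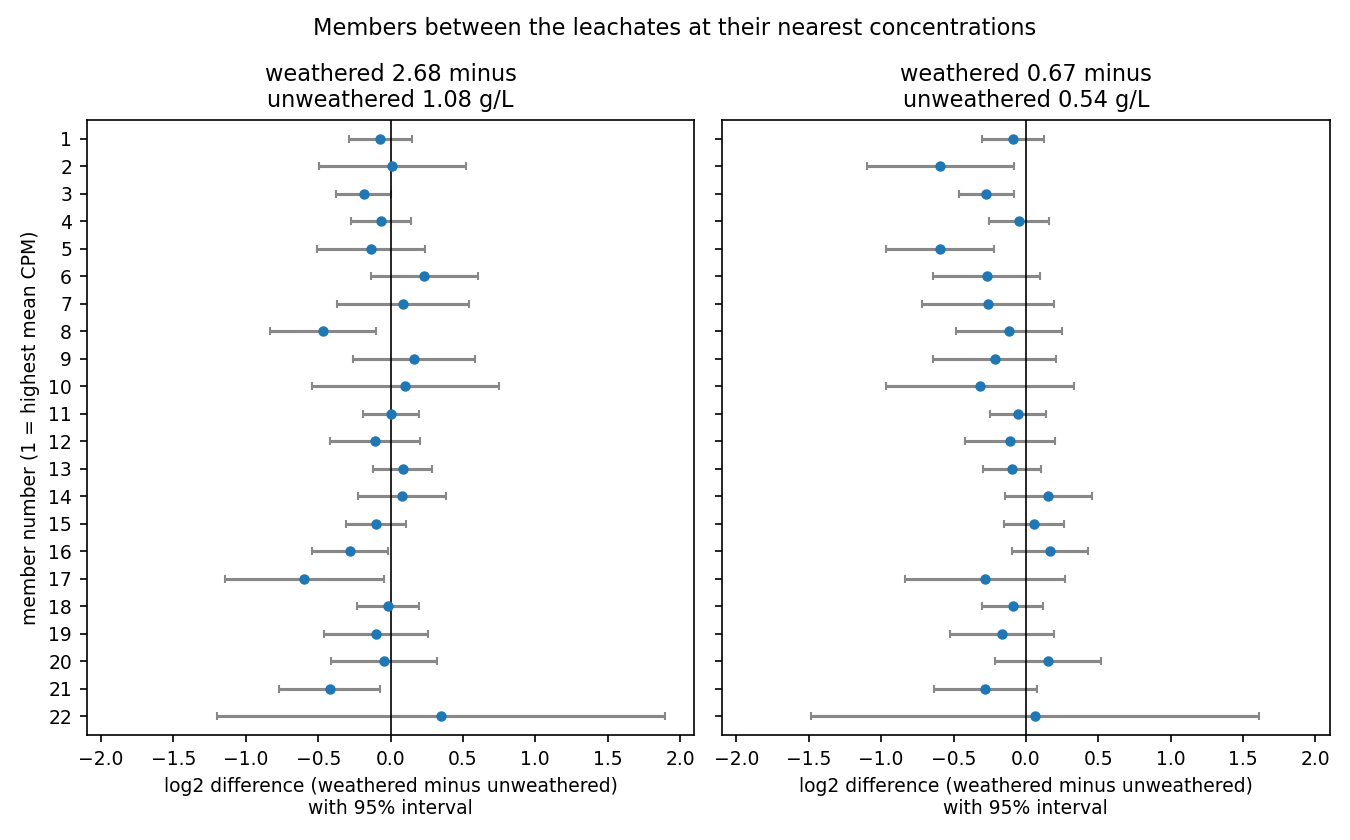
Log2 differences of the 22 members, weathered minus unweathered, with 95% intervals from edgeR, between weathered 2.68 and unweathered 1.08 g/L and between weathered 0.67 and unweathered 0.54 g/L. Adjusted p-values were 0.427 or more on the left and 0.211 or more on the right, and the widest intervals belong to member 22.

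Between the lower concentrations of each leachate the test called 0 members as well. At weathered 1.34 g/L against 0.67 g/L 0% of all genes were called, and 13 members had estimates above 0 and 9 below, with a median log2 difference of 0.02 against 0.01 over all genes. Here 1 member, number 5, had an unadjusted p under 0.05 (4.55%, against 3.05% of all genes), with a log2 difference of 0.39 (SE 0.18) that missed the threshold (edgeR adjusted p = 0.99977). At unweathered 0.54 g/L against 0.27 g/L 0% of all genes were called, and 17 members had estimates above 0 and 5 below, with a median of 0.14 against 0.00 over all genes. An unadjusted p under 0.05 was found for members 2, 3 and 5 (13.6%, against 2.85% of all genes), with log2 differences of 0.52, 0.19 and 0.40, all short of the threshold (edgeR adjusted p = 0.99988). DESeq2 called 0 members in all 4 comparisons too. Of all genes it called 0.122% for weathered 2.68 against unweathered 1.08 g/L, 0.834% for weathered 0.67 against unweathered 0.54 g/L, 0.00556% for weathered 1.34 against 0.67 g/L and 0% for unweathered 0.54 against 0.27 g/L. In the same order, its unadjusted p was under 0.05 for 5 of the 22 members beside 1785 of the 17990 genes, for 3 members beside 1952 genes, for 1 member beside 567 genes and for 3 members beside 547 genes.

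Weathered 1.34 g/L and unweathered 1.08 g/L are also near each other in concentration, but the rule asks every library of the unweathered group to exceed the control and only the median of the weathered one, so their difference is a description. The mean was lower at weathered 1.34 g/L for 21 of the 22 members, with a median log2 difference of -0.34 against -0.10 over all genes. The exception was member 22, at 0.27. Member 17 differed most, with 14.2 ± 4.46 CPM at weathered 1.34 g/L and 34.7 ± 14.5 CPM at unweathered 1.08 g/L (SD, n = 5 each).

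The split of a member's counts over its isoforms was not used by the rule and was tested with limma on the log2 ratio of an isoform to the rest of its gene. Of the members, 12 had 1 transcript (54.5%, against 55.1% of the 9252 genes), and 18 isoforms of 7 members could be tested among 11686 isoforms. A gene had to have a mean of 50 counts over all libraries, which member 22 reached through the exposed groups alone, so its shares are given without a test. The other 6 members, with 16 isoforms, reached it in the control as well. At weathered 2.68 g/L against the control 0 of their isoforms had a changed share, beside 0.0941% of all isoforms, and at unweathered 1.08 g/L 0 had, beside 0.12% of all isoforms. In both comparisons 0 of the 16 had an unadjusted p under 0.05, and the smallest limma adjusted p was 0.903 for weathered and 0.870 for unweathered leachate. Of the 2 isoforms of member 22 the longer, of 1959 bases, held 96.3% ± 1.99 of the gene's counts at unweathered 1.08 g/L and 84.2% ± 14.3 in the control (SD, n = 5 each), where the gene had 3 to 35 counts per library. In member 1 the isoform of 1724 bases held 85.0% ± 1.14 at weathered 2.68 g/L, 86.2% ± 2.99 at unweathered 1.08 g/L and 87.0% ± 0.952 in the control (SD, n = 5 each).

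In length and level the members were a mixed set. Their longest transcripts ran from 784 to 4544 bases, with a median of 1330 bases against 2207 bases over the 9252 genes. Per length they were more abundant than those genes, with a median mean level of 89.3 TPM against 15.5 TPM. In mean CPM 7 members were above 100 and 3 below 10. The mean coefficient of variation of CPM within a group had a median of 16.8% over the members and 15.3% over the 9252 genes, and ran from 6.90% in member 4 to 92.3% in member 22. How far the rule itself sets these properties was not tested.

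High and low libraries within a group were often the same for many members. Replicate 4 of unweathered 0.27 g/L was the highest of its group for 17 of the 22 members and replicate 5 the lowest for 12. For 14 members replicate 3 of weathered 0.67 g/L was the highest, and for 13 replicate 1 of weathered 2.68 g/L was the lowest. In the control, replicate 4 was the lowest for 11 members and replicate 2 the highest for 9. How often these libraries were highest or lowest over all genes was not counted, so the counts are not shown to be particular to the members. The TMM factor was 1.16 in replicate 4 and 0.897 in replicate 5 of unweathered 0.27 g/L, and 0.916 in control replicate 4 against 1.09 to 1.13 in the other control libraries. In replicate 3 of weathered 0.67 g/L it was 1.01, against 1.08 in replicate 2 of that group. Replicate 1 of weathered 2.68 g/L, the lowest for 13 members, had 1.11, against 0.933 to 1.14 in the others of its group. The part of these factors in the differences was not tested.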

How the data were processed

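Whole-body poly(A) RNA of 35 libraries, 5 in each of 7 groups set by the labels, was sequenced. The authors deposited, per library, an estimated count, a length and a TPM for each of 34903 transcripts, with reads trimmed by Trimmomatic 0.38 and quantified by kallisto, per the submitters' processing notes, which also name DESeq2. The sources used here give neither the assembly nor the kallisto version. The authors also deposited 1 table per exposed group with a log2 fold change and an adjusted p-value (FDR) against the control, per the file headers. kallisto divides reads among similar transcripts, so the estimated counts were summed per Trinity gene here, and members that resemble other genes may share reads with them.

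CPM values were computed from these sums and library totals. The tests used edgeR 4.0.16 in R 4.3.3: rounded sums, a filter by filterByExpr (at least 10 counts, at least 15 in total, by group), TMM factors, and the quasi-likelihood test after 1 fit of 7 group means to the 35 libraries. All 22 members were among the 17990 genes kept. Isoform shares were tested with limma 3.58.1 on log2 ratios with a pseudocount of 0.5, for isoforms with a mean share of 5% to 95% in genes with a mean of 50 or more counts. Benjamini-Hochberg adjustment ran over all features tested, with a threshold of 0.05, and the procedures were tested on simulated data. Intervals of log2 differences are 95% intervals. DESeq2 1.42.0, other scalings and filters, and fits without single libraries were alternatives. Identifiers were named by a rule that allows at most 2 that are higher, namely the member with the highest mean CPM and the one with the largest mean log2 change at the lowest concentrations. The members and lists were chosen with earlier results of these data known. No column of the deposited tables was set aside as belonging to another sample.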

Additional observations from a re-analysis of the deposited data

Results flagged for a closer look

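In 10 of 161 sets of 5 libraries (6.21%), counting the 22 members and their mean level in each of the 7 groups, the highest or lowest library stood far from the other 4 by Dixon's test with a critical value of 0.71, where chance alone gives about 1 in 20. Member 22 accounts for 3 of these, with 25.6 CPM in replicate 3 of weathered 0.67 g/L, 25.2 CPM in replicate 3 of weathered 1.34 g/L and 1.502 CPM in replicate 2 of the control. Replicate 3 of weathered 0.67 g/L also stood high for member 15, at 35.9 CPM, and member 17, at 19.9 CPM. Replicate 1 of unweathered 0.54 g/L stood high for member 10, at 126 CPM, member 19, at 30.2 CPM, and member 20, at 10.8 CPM. Member 13 had 80.8 CPM in replicate 4 of unweathered 0.27 g/L, against 48.1 CPM in the next library. Member 2 had 539 CPM in replicate 1 of unweathered 1.08 g/L, the lowest there, against 759.5 CPM in the next.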

How the results depend on the processing

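The number of genes that met the rule was 65 with TMM and 61 with upper quartile scaling, against 22 by library totals, and it ran from 19 to 46 when each of the 35 libraries was left out in turn. Without weathered 0.67 g/L replicate 1, which had the lowest TMM factor, and weathered 1.34 g/L replicate 3, which correlated least with the rest, a choice made after seeing the data, it was 27. The members' median log2 change at weathered 0.67 g/L was 0.54 with TMM and 0.55 with upper quartile scaling, against 0.32, and at weathered 1.34 g/L 0.49 with either, against 0.34. Leaving out 1 library gave 0.33 to 0.40 at weathered 1.34 g/L, and at the other concentrations medians that moved by less than the spread between libraries. The count of 0 called members held in all 66 alternatives of the 4 comparisons, the DESeq2 fits included. Over all genes the edgeR alternatives called from 0 to 36, the latter of 18187 tested. The count of 0 member isoforms with a changed share held in all 30 alternatives, which called from 2 to 19 of all isoforms tested. With so few calls among all features, 0 among the members says little about them. Over all genes DESeq2 called 22 and edgeR 0 at weathered 2.68 against unweathered 1.08 g/L, 150 and 4 at weathered 0.67 against unweathered 0.54 g/L, 1 and 0 at weathered 1.34 against 0.67 g/L, and both called 0 at unweathered 0.54 against 0.27 g/L. Replicate numbers showed no regular pairing of the libraries, and the labels do not tell what the numbers stand for. Same-numbered libraries of the compared groups had correlations of their deviations between -0.59 and 0.61. A fit with the replicate number as a block called 0 members, beside at most 4 of 17990 genes, and 0 member isoforms, beside at most 12 of 11686 isoforms. The fit without the block also called 0 members and 0 member isoforms. Member 22 is the one with the fewest counts, 3 in 1 control library, and its values are the least precise.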
